A study of Mus musculus with 12 samples.

Results

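Under the processing reported here, mouse embryonic fibroblasts without ATF4 differed from wild-type fibroblasts in how some mature miRNA levels changed with 12 h of tunicamycin. The quantity described here is the response of ATF4 knockout (KO) cells minus the response of wild-type (WT) cells, on a log2 scale, for every mouse miRNA name on the array: 611 of the 650 names, the others being viral. Of the 611 names, 145 were bright enough to test, and 33 passed the threshold for a difference between the genotypes, 30 higher and 3 lower. These counts depended on the processing. With the values that the authors deposited, or after quantile normalization, 0 were higher and 1 was lower. With arrays scaled to their medians 2 were higher and 1 was lower. With another background correction (normexp) 0 passed either way, and only 11 of the 30 were above 0. miR-322, miR-26a, miR-26b, miR-148a, miR-34c, miR-34b-5p and miR-146b fell in WT cells, while none of these 7 changed past the threshold in KO cells. miR-221 went the other way, and ended lower in treated KO cells than in treated WT cells.

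The comparison used 8 of the 12 arrays of the series, 2 in each of 4 groups: KO cells given 2 ug/mL tunicamycin for 12 h, untreated KO cells, WT cells given the same dose for 12 h, and untreated WT cells. All were cultured fibroblasts of the C57BL/6 background, and the labels call the arrays of a group independent experiments. The other 4 arrays, KO and WT cells after 24 h, entered the estimate of the spread. How many embryos or lines each genotype came from is not given in the sources used here, and no probe on the array measures Atf4 mRNA, so the genotype labels could not be checked. The untreated arrays lay on 1 slide and the tunicamycin arrays on another, with both genotypes on each. The 2 slides were also scanned on different dates. A WT or KO response alone, including any fall named here, therefore cannot be told apart from a change of slide or scan date. The difference between genotypes is taken within slides. However, WT and KO arrays sat in different rows of the slides, so genotype and row cannot be told apart.

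A level is given below as a percentage of the array's 75th percentile, which served to scale the arrays. It ran from 417.9 to 515.4 arbitrary units in treated KO and from 709.5 to 791.2 in untreated KO cells. In WT cells it ran from 431.5 to 570.1 when treated and from 555.7 to 577 when untreated. The percentile thus differed between groups, and it enters every difference of levels above the floor. Levels under 3.22% were raised to that floor before any difference was taken. Between 122 and 148 mouse miRNAs per array were well above background, 89 of those tested were so on all 8 arrays, and 420 of the 611 were so on none. Differences are in log2 units ± standard error (SE, n = 2 arrays per group), with p adjusted over the 145 tested miRNAs by limma and a threshold of 0.05. The pooled SD between arrays of a group was 1.11 in treated KO cells and 0.13 in untreated KO cells, against 1.23 in treated WT cells and 0.15 in untreated WT cells, while the fit takes 1 spread for all groups. Replicate 2 of both treated groups, 1 array of each genotype from the same scan date, stood apart from the other 6 arrays: 15 tested miRNAs were more than 2 log2 units higher there than on replicate 1 in both genotypes, 0 were as far lower, and 0 differed by that much between the untreated arrays of a genotype. miR-574-3p was the widest, at 1.61 and 284% in treated KO and 7.65 and 6.19% in untreated KO cells, against -0.77 and 285% in treated WT and 15.4 and 9.68% in untreated WT cells. None of the 15 was among the 33 called. Without these 2 arrays, an alternative added after seeing the data that leaves 1 array in each treated group, limma called 7 higher and 2 lower, of which 6 (miR-146b, miR-210, miR-34c, miR-148a, miR-497 and miR-195) and 1 (miR-455) were shared, and all 33 kept their sign. With this few arrays the precision is low, and p reflects only how much these arrays varied.

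Tunicamycin blocks N-linked glycosylation, so that unfolded proteins build up in the endoplasmic reticulum (ER). The ER kinase PERK then phosphorylates the initiation factor eIF2α, general translation drops, and ATF4, a transcription factor, is made more efficiently and induces genes of amino acid supply, redox defence and cell death. A miRNA is a short RNA that pairs with messenger RNAs mainly through its seed, bases 2 to 8, and lowers their stability or translation. miRNAs with 1 seed share many predicted targets, so the results are ordered by seed family. Lists were chosen with earlier results of these data known, so the share called in a list is a description and not a test.

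The mature sequences of the families that carry the differences are shown first, because the results are ordered by them. They come from RefSeq (build GRCm38.p6), which held a match for 27 of the 33 miRNAs that differed and for 56 of the 145 tested. Each is written 5′ to 3′ with the seed in capitals. The first 4 share the seed of the miR-15/16 family.
miR-322: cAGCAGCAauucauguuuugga
miR-16: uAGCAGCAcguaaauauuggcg
miR-497: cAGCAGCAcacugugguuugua
miR-195: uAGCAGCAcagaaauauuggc
The next 4 form the miR-26 family and that of miR-148a and miR-152.
miR-26a: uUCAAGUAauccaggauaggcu
miR-26b: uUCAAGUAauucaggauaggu
miR-148a: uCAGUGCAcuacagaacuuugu
miR-152: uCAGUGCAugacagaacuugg
The miR-34 and miR-146 pairs and miR-210 follow.
miR-34a: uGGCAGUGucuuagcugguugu
miR-34b-5p: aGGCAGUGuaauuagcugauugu
miR-146a: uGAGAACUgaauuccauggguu
miR-146b: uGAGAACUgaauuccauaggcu
miR-210: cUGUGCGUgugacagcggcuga
The last lines give 4 members of let-7, and miR-221 beside miR-222, which have 1 seed. Their estimates lie on opposite sides of 0, but that of miR-222 did not pass and had treated KO cells at the floor.
let-7i: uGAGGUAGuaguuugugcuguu
let-7g: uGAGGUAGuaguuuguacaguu
let-7c: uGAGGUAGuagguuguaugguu
let-7b: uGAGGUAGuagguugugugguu
miR-221: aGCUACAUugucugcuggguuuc
miR-222: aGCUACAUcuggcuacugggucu

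Of the 145 tested miRNAs, 30 (20.7%) were higher in the KO minus WT difference and 3 (2.07%) were lower. At an unadjusted p under 0.05 the counts were 41 and 5. The sign was the same in both replicate numbers for all 30 and all 3, and for 122 of the 145 tested. A miRNA passes only if its arrays vary little beside its difference, so this agreement among the called is largely built in. The replicate numbers also do not pair treated with untreated arrays. In 27 of the 30 the WT response itself fell past the threshold, as it did in 44 of all 145 (30.3%). The WT response is a term of the difference that chose the 30, so a share above that of all 145 follows in part from the choice. In 0 of the 30 did the KO response pass in either direction. Each response was adjusted over the 145 on its own, so equal evidence could pass in WT and not in KO cells. The WT response of let-7i, -1.02 ± 0.29, passed (adjusted p = 0.034), while the KO response of miR-146b, 1.23 ± 0.31, did not (adjusted p = 0.143). For miR-129-3p, miR-423-5p and let-7b the KO estimates (0.98, 0.80 and 0.43) were larger in size than the WT estimates (-0.95, -0.36 and -0.20). For the rest of the 30 the WT estimate was the larger. Among all 145, limma called the KO response of 1 miRNA (0.69%), miR-455, whose treated KO arrays were both at the floor. The KO estimate was above 0 for 21 of the 30, and the WT estimate was below 0 for all 30.

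The same difference can be read as the genotype gap at 12 h minus the genotype gap in untreated cells, and the untreated arrays enter both the gap and the response, so these views are not independent. KO cells lay below WT cells before treatment for 37 of 145 miRNAs (25.5%), and 22 of the 30 were among them. At 12 h KO cells lay above WT cells for 21 of 145 (14.5%), including 12 of the 30, and below for 15 of 145 (10.3%). Each gap is a term of the difference that chose the 30, so these shares also follow in part from the choice. Split by these calls, 16 of the 30 were lower in KO only before treatment, 7 were higher in KO only at 12 h (let-7b, let-7c, let-7i, miR-196b, miR-26a, miR-322 and miR-34c), and 5 crossed over, lower in untreated KO and higher in treated KO (miR-106b, miR-146b, miR-148a, miR-26b and miR-34b-5p). miR-210 was lower in KO at both times, and miR-21 passed in neither.

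**Figure D1:**
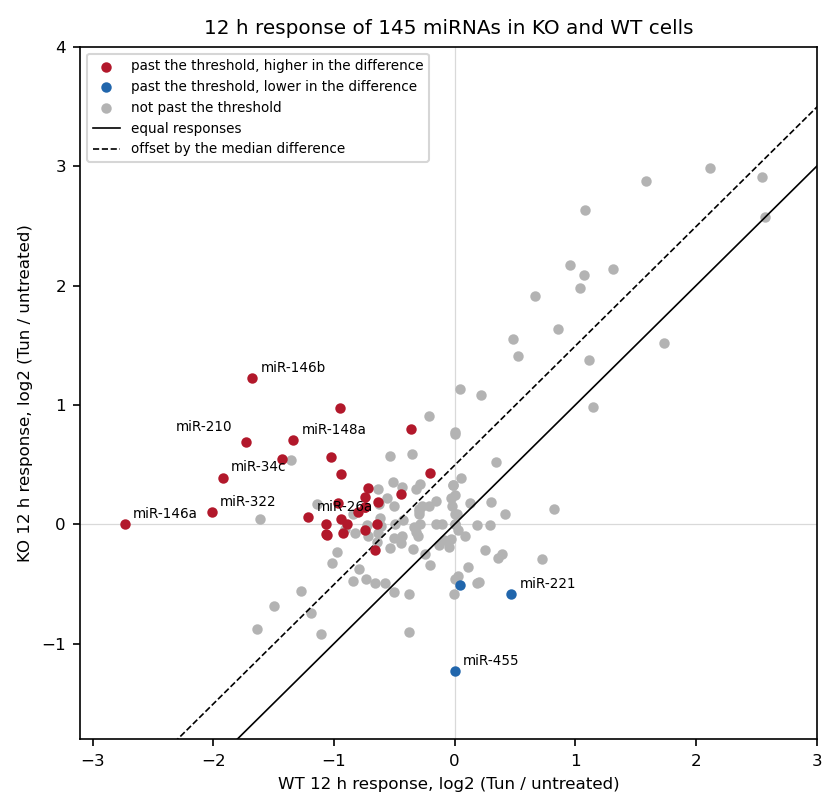
Each point is 1 of the 145 tested miRNAs, with its 12 h response in WT cells on the x axis and in KO cells on the y axis (both log2, treated over untreated). The 30 red points lie left of 0, their WT response being negative, and the dashed line is offset from equal responses by the median difference of 0.49.

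Under the reported scaling the whole distribution was shifted as well. The percentile used for this scaling was highest in untreated KO cells, and whether the shift goes beyond the scaling was not tested. The median difference of the 145 was 0.49, with quartiles of 0.08 and 0.89, and 112 were above 0. The median KO response was 0.06 and the median WT response -0.32. This offset depended on how arrays were scaled: it was 0.07 with each array's median, -0.01 after quantile normalization, -0.25 with the 75th percentile over all mouse miRNAs and 0.11 with no scaling. Under those 4 scalings the higher calls numbered 2, 0, 0 and 9 and the lower calls 1, 1, 0 and 4, while 29, 27, 26 and 29 of the 30 stayed above 0. Relative to the median, 15 of the 30 lay more than 0.5 above it, and all 3 lower calls more than 0.5 below.

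**Figure D2:**
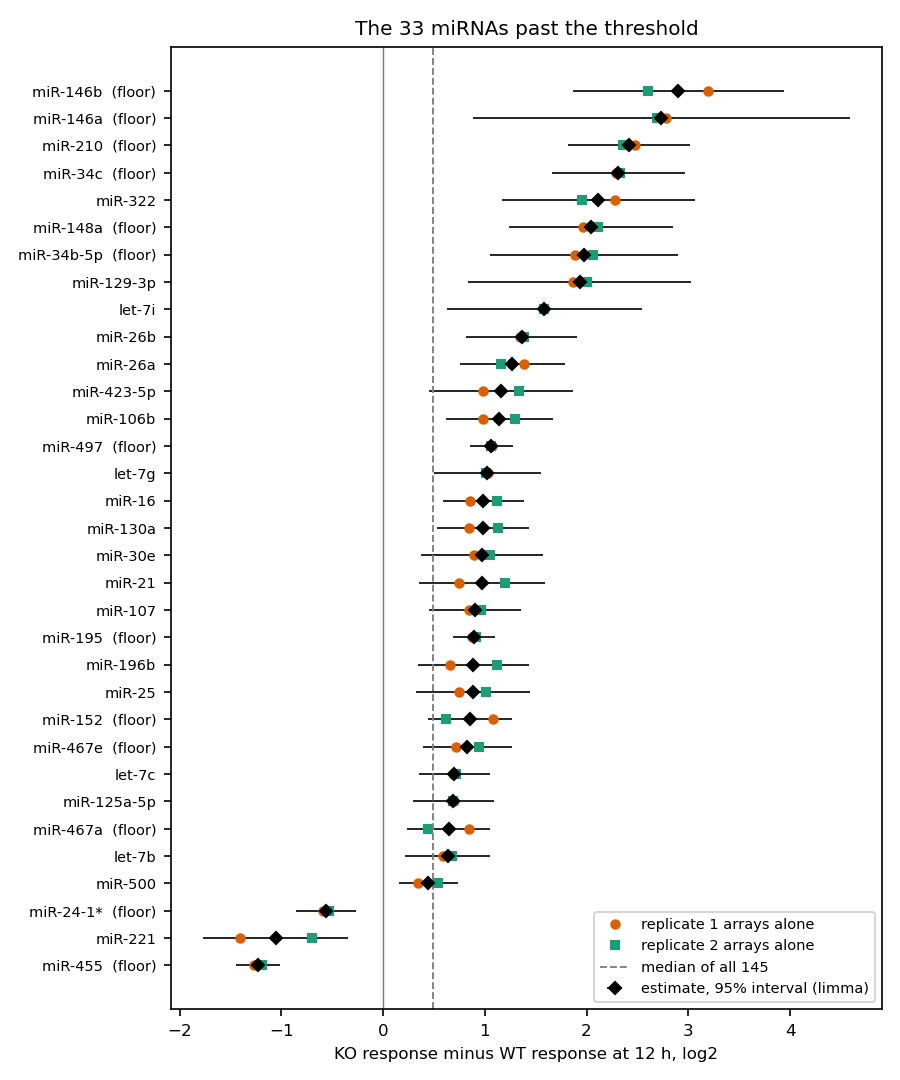
The 33 miRNAs past the threshold, with the KO minus WT difference in response on the x axis (log2, diamonds, bars are 95% intervals from limma) and the value from the replicate 1 and replicate 2 arrays alone. Both replicates lie on the same side of 0 in every row, which the threshold itself favours. The label "floor" marks the 13 miRNAs with at least 1 group mean or array raised to the floor.

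The miR-15/16 seed family, known for targeting cyclins and the survival protein BCL2, had 6 tested members, of which 4 were higher in the difference, beside 20.7% of all tested, and all 6 were above 0 (0.75 to 2.12). miR-322, the mouse counterpart of human miR-424 (mature sequence at chrX:53054306-53054327, minus strand), stood at 25.4 and 27.1% of the 75th percentile in treated KO cells and 23.4 and 25.5% in untreated KO cells, against 6.60 and 9.18% in treated WT cells and 29.6 and 33.5% in untreated WT cells. Only the treated WT arrays were low, and they did not overlap with any other array. The KO response of 0.10 ± 0.28 (adjusted p = 0.907) and the WT response of -2.01 ± 0.28 (adjusted p = 0.00271) gave a difference of 2.12 ± 0.40 (adjusted p = 0.0147), which was 1.62 above the median of all tested. It was 2.28 in replicate 1 and 1.95 in replicate 2.

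miR-16, encoded at chr14:61631936-61631957 and chr3:69009918-69009939, had 55.3 and 65.3% in treated KO and 57.9 and 58.4% in untreated KO cells, against 52.4 and 51.7% in treated WT and 99.2 and 100.3% in untreated WT cells. Here the untreated WT arrays stood apart above the other 6, so that the KO level before treatment was already near that of treated WT cells. The difference was 0.99 ± 0.17 (adjusted p = 0.00927), with a genotype gap of 0.21 ± 0.12 at 12 h and -0.78 ± 0.12 before treatment (adjusted p = 0.307 and 0.00522). miR-497 and miR-195, made from 1 cluster on chromosome 11 (mature sequences at chr11:70234730-70234751 and chr11:70235062-70235082), showed the same form at a low level. miR-497 read 2.27 and 2.22% in treated KO, 1.59 and 1.23% in untreated KO, 0.47 and 0.44% in treated WT and 6.76 and 6.71% in untreated WT cells. Only untreated WT cells exceeded the floor, so the differences of miR-497 (1.07 ± 0.09, adjusted p = 0.000407) and miR-195 (0.89 ± 0.09, adjusted p = 0.000985) repeat the untreated genotype gap with its sign turned, and their SEs leave out the spread below the floor. Their size was set by the floor: with a floor 4 times lower they were 3.75 and 3.16, and with a floor 2 times higher they were 0.065 and 0, the call of miR-195 being lost. As bounds, miR-497 was at least 2.09-fold and miR-195 at least 1.86-fold lower in untreated KO than in untreated WT cells, and at least 2.05-fold and 1.82-fold lower in treated than in untreated WT cells. miR-15a (0.75 ± 0.32) and miR-15b (0.93 ± 0.36) did not pass (adjusted p = 0.152 and 0.118), and miR-15a was below 0 (-0.13) when arrays were scaled over all mouse miRNAs. The median of the 6 was 0.96, beside 0.49 for all tested.

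The miR-26 pair, which in mouse lies in introns of the Ctdsp phosphatase genes and is known to target the methyltransferase EZH2, differed in both members. miR-26a (chr9:119031811-119031832 and chr10:126995543-126995564) had 50.5 and 43.1% in treated KO and 43.6 and 46.0% in untreated KO cells, against 19.1 and 16.5% in treated WT and 42.9 and 39.4% in untreated WT cells. As with miR-322, the treated WT arrays alone were low. The KO response was 0.06 ± 0.15 (adjusted p = 0.905) and the WT response -1.21 ± 0.15 (adjusted p = 0.00213), a difference of 1.27 ± 0.22 (adjusted p = 0.00927). miR-26b (chr1:74394324-74394344), which differs from miR-26a at 2 of 21 positions, had 23.5 and 20.8% in treated KO and 16.6 and 16.4% in untreated KO cells, against 14.99 and 12.3% in treated WT and 26.8 and 25.4% in untreated WT cells. It crossed over, with a gap of 0.70 ± 0.16 between KO and WT cells at 12 h and -0.66 ± 0.16 before treatment (adjusted p = 0.0257 and 0.022), a difference of 1.36 ± 0.23 (adjusted p = 0.00927).

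In the miR-148 and miR-152 family, known to target the DNA methyltransferase DNMT1, miR-148a and miR-152 were both higher in the difference. miR-148a (chr6:51269829-51269850, minus strand) had 9.80 and 7.44% in treated KO and 5.04 and 5.45% in untreated KO cells, against 5.11 and 2.75% in treated WT and 10.3 and 10.2% in untreated WT cells. The gap between KO and WT cells was 1.07 ± 0.24 at 12 h and -0.97 ± 0.24 before treatment, which gave 2.04 ± 0.34 (adjusted p = 0.00927). Treated and untreated KO arrays did not overlap, but the KO response of 0.70 ± 0.24 did not pass (adjusted p = 0.249). miR-152, near the floor at 2.63 to 6.75% on all 8 arrays, differed by 0.85 ± 0.18 (adjusted p = 0.0174). It turned below 0, to -0.82, with the scanner software's total gene signal in place of the sum over probes, and no longer passed with a floor 2 times higher (adjusted p = 0.612). With that floor miR-148a differed by 1.08. miR-103 and miR-107, which lie in introns of the pantothenate kinase genes, differ from each other at 1 of 23 positions, so that their probes may share signal. The difference was 0.90 ± 0.19 for miR-107 (adjusted p = 0.018) and 0.60 ± 0.24 for miR-103 (adjusted p = 0.136). Among the 6 tested members of these 3 families, 5 were higher and 0 lower, with a median of 1.09. Of all 145, 30 were higher and 3 lower (20.7% and 2.07%), with a median of 0.49. The 3 families were listed together with earlier results of these data known, so their share is a description and not a test.

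**Figure D3:**
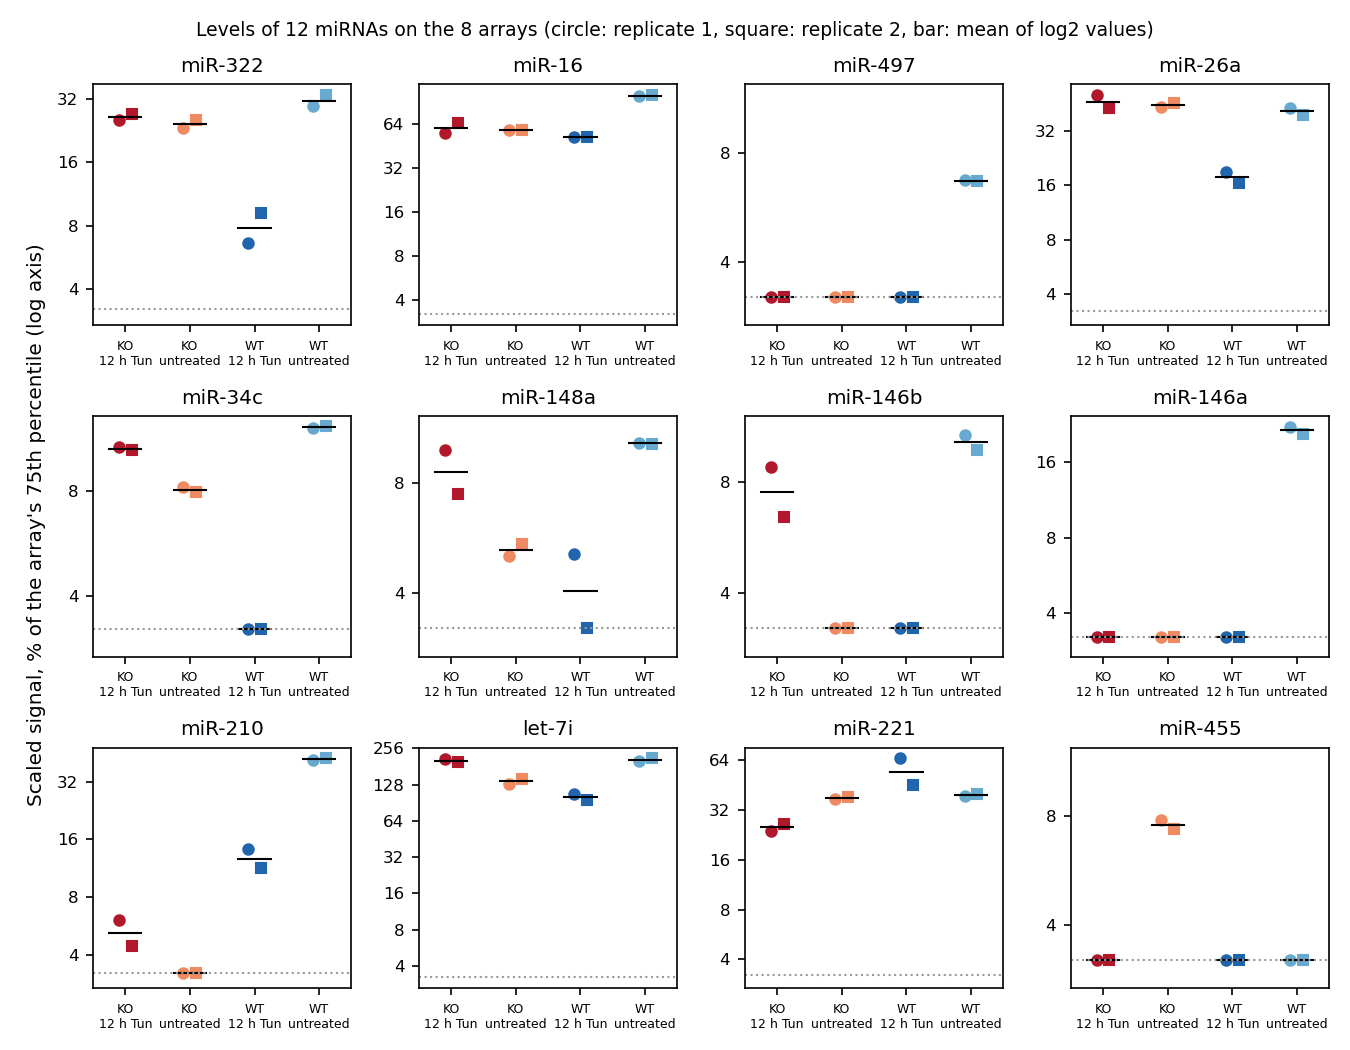
Scaled signal of 12 miRNAs on the 8 arrays (y axis, percent of the array's 75th percentile, log axis; circles replicate 1, squares replicate 2, bars the mean of log2 values, dotted line the floor of 3.22%). In the panels of miR-322 and miR-26a the treated WT arrays sit below the rest, in those of miR-16, miR-497 and miR-146a the untreated WT arrays sit above the rest, and miR-455 exceeds the floor in untreated KO cells alone.

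Of 6 tested miRNAs linked to the tumour suppressor p53, 3 were higher in the difference, 0 were lower and all 6 were above 0, with a median of 1.40, beside 30 higher (20.7%) and 112 above 0 of all 145. miR-34c had 10.7 and 10.5% in treated KO and 8.22 and 7.94% in untreated KO cells, against 1.91 and 1.23% in treated WT and 12.1 and 12.3% in untreated WT cells. It was not well above background in treated WT cells and was well above it in the other 3 groups. At 12 h it was at least 3.22-fold higher in KO than in WT cells, and in WT cells it was at least 3.71-fold lower after tunicamycin than before. The difference was 2.31 ± 0.28 (adjusted p = 0.00199), but 3.38 with a floor 4 times lower and 1.31 with a floor 2 times higher. miR-34b-5p (chr9:51103610-51103632, minus strand), with 6.35 and 7.21% in treated KO and 4.51 and 4.76% in untreated KO cells, against 1.67 and 1.32% in treated WT and 8.45 and 8.86% in untreated WT cells, differed by 1.97 ± 0.39 (adjusted p = 0.0153). With those floors it was 3.09 and 0.51, the second not past the threshold (adjusted p = 0.558). miR-34a, which has the seed of miR-34b-5p but differs from it at 11 of 22 positions and comes from another locus (chr4:150068473-150068494), had a difference of 1.90 ± 0.59 that did not pass (adjusted p = 0.0588). Its levels had the same form, 16.4 and 18.02% in treated KO and 11.3 and 12.4% in untreated KO cells, against 10.9 and 7.97% in treated WT and 23.2 and 24.6% in untreated WT cells.

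Among 5 tested miRNAs known from hypoxia and inflammation, 4 were higher in the difference and 0 lower, with a median of 2.42, beside 20.7% higher, 2.07% lower and a median of 0.49 over all tested. miR-146b (chr19:46342790-46342811), induced by NF-κB and known to restrain innate immune signalling, had 8.81 and 6.45% in treated KO cells and 3.16 and 2.76% in untreated KO cells, against -0.16 and -0.33% in treated WT and 10.8 and 9.80% in untreated WT cells. The genotypes thus exchanged places: KO cells were at least 2.29-fold higher than WT cells at 12 h, and the gap before treatment was -1.67 ± 0.31 (adjusted p = 0.0098). The difference was 2.90 ± 0.44 (adjusted p = 0.00726), or 2.41 above the median, and the KO response of 1.23 ± 0.31 did not pass (adjusted p = 0.143). Since treated WT and untreated KO cells were at the floor, the size of the difference depended on it, and was 5.03 with a floor 4 times lower and 0.90 with a floor 2 times higher, past the threshold with both. miR-146a (chr11:43374435-43374456, minus strand), which differs from miR-146b at 2 of 22 positions, read 0.01 to 0.57% on the 4 KO arrays, against 0.34 and -0.24% in treated WT and 22.1 and 20.7% in untreated WT cells. Its difference of 2.73 ± 0.78 (adjusted p = 0.0443) therefore held no information on a KO response, and it was lost without any 1 of the 8 arrays of the comparison. It was 4.73 with a floor 4 times lower (adjusted p = 0.129) and 1.73 with a floor 2 times higher (adjusted p = 0.0121).

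miR-210 (chr7:141221407-141221428, minus strand), the miRNA best known as a target of hypoxia-inducible factors, had 6.10 and 4.44% in treated KO and 3.0 and 2.94% in untreated KO cells, against 14.2 and 11.4% in treated WT and 41.7 and 42.4% in untreated WT cells. It was low in KO cells throughout, with a gap of -1.29 ± 0.18 at 12 h and -3.71 ± 0.18 before treatment (adjusted p = 0.00427 and 1.94e-05), and the gap was smaller at 12 h by 2.42 ± 0.25 (adjusted p = 0.00104). With untreated KO cells just below the floor, a decrease there could not be seen. miR-21, an abundant fibroblast miRNA, had 2368 and 2304% in treated KO and 2475 and 2486% in untreated KO cells, against 2061 and 1501% in treated WT and 3600 and 3713% in untreated WT cells. Untreated WT cells were the high group, and the difference was 0.97 ± 0.26 (adjusted p = 0.0383). The remaining member, miR-155 (0.25), did not pass.

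The let-7 family, which rises with differentiation and is known to target RAS and HMGA2, had 9 tested members with miR-98. All 9 were above 0 (0.34 to 1.58, median 0.70) and 4 were higher past the threshold, beside 20.7% of all tested, but 7 of the 9 turned below 0 when arrays were scaled over all mouse miRNAs, let-7b and let-7c among them, as did 2 of the 9 under each of the other 3 scalings. let-7g and let-7i stayed above 0 under all 4. let-7i (chr10:122985698-122985719, minus strand) had the largest difference of the family, with 208 and 196% in treated KO and 129.96 and 144% in untreated KO cells, against 107 and 96.2% in treated WT and 201 and 212% in untreated WT cells. KO cells were 0.99 ± 0.29 above WT cells at 12 h (adjusted p = 0.0452), and the difference was 1.58 ± 0.41 (adjusted p = 0.0349). let-7g differed by 1.02 ± 0.22 (adjusted p = 0.0202), let-7c by 0.70 ± 0.15 (adjusted p = 0.018) and let-7b by 0.63 ± 0.18 (adjusted p = 0.0427). let-7b and let-7c, which share a cluster on chromosome 15 and differ at 1 of 22 positions, were both higher in KO than in WT cells at 12 h only. let-7a, let-7d, let-7e, let-7f and miR-98 had differences of 0.87, 0.62, 0.35, 0.75 and 0.34 that did not pass, and members this close in sequence may share signal on the array, which was not tested.

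**Figure D4:**
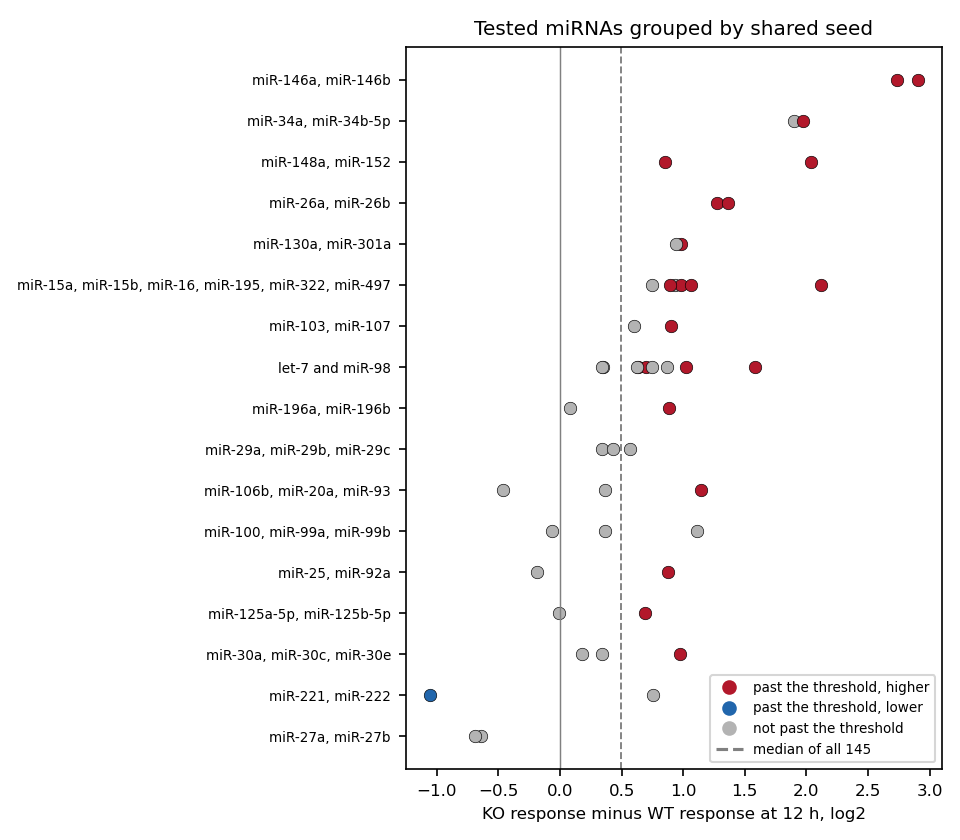
Tested miRNAs with a RefSeq sequence, grouped by shared seed (rows), with the 12 h difference between the KO and WT responses on the x axis (log2); red and blue points passed the threshold, grey points did not, and the dashed line is the median of all 145. The rows of miR-146, of miR-148a with miR-152 and of miR-26 have both members past the threshold. The row of miR-221 and miR-222 has its members on opposite sides of 0, miR-222 with both treated KO arrays at the floor.

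In the miR-17~92 cluster and its paralogs the sign of the difference went by locus under the reported processing. The 3 miRNAs of the paralog in an intron of the replication gene Mcm7 on chromosome 5 were all above 0. They were miR-106b at 1.14 ± 0.22 (adjusted p = 0.0151), miR-25 at 0.88 ± 0.24 (adjusted p = 0.0383) and miR-93 at 0.37 ± 0.21 (adjusted p = 0.295). miR-93 lay below the median of all tested, and was below 0 in 4 of 24 alternatives besides the omission of single arrays. miR-106b, known to target the cell death protein Bim together with miR-25, had 42.1 and 43.6% in treated KO and 37.7 and 38.1% in untreated KO cells, against 32.3 and 26.4% in treated WT and 57.2 and 56.7% in untreated WT cells. KO cells lay between the treated and untreated WT cells on every array. The 6 others (miR-18a, miR-19a, miR-19b, miR-20a, miR-20b and miR-92a) were all below 0, from -0.68 for miR-18a to -0.19 for miR-92a, and none passed. miR-20a, with the seed of miR-106b, was at 23.9 and 29.9% in treated KO and 33.7 and 34.5% in untreated KO cells, against 76.9 and 64.7% in treated WT and 65.0 and 65.4% in untreated WT cells, a difference of -0.47 ± 0.62. The list of 9 thus had 2 higher and 0 lower, a share higher that is near the 20.7% of all tested, and a median of -0.30, against 0.49 over all tested. Whether the paralogs differ from the others was not tested.

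The remaining higher calls came from families with 1 call each or with no other tested member. miR-130a had 113 and 116% in treated KO and 122 and 119.85% in untreated KO cells, against 112 and 95.2% in treated WT and 217 and 215% in untreated WT cells, and differed by 0.98 ± 0.19 (adjusted p = 0.0151). As for miR-16 and miR-125a-5p (0.69 ± 0.17, adjusted p = 0.0313), only untreated WT cells stood apart. miR-196b, from a Hox gene cluster, had the other form, with 19.96 to 25.6% on the 4 KO arrays, against 11.1 and 10.4% in treated WT and 17.3 and 18.7% in untreated WT cells, and differed by 0.89 ± 0.23 (adjusted p = 0.0349), which was lost with scan date as a block (adjusted p = 0.0677). miR-30e differed by 0.97 ± 0.25 (adjusted p = 0.0349). miR-129-3p (1.93 ± 0.46, adjusted p = 0.0292) and miR-423-5p (1.16 ± 0.30, adjusted p = 0.0349) had WT responses that did not pass, but both turned below 0, to -2.46 and -2.27, when the scanner software's total gene signal replaced the sum over probes. miR-467e (0.83 ± 0.18, but -1.05 with the total gene signal), miR-467a (0.64 ± 0.17) and miR-500 (0.44 ± 0.12) complete the 30 and are named after their values were seen; miR-500 lay below the median of all tested and was below 0 under each of the 4 other scalings.

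The 3 miRNAs lower in the difference were miR-221, miR-455 and miR-24-1*. miR-221 (chrX:19146307-19146329, minus strand), known to target the cell cycle inhibitor p27, had 23.7 and 26.3% in treated KO and 37.1 and 37.9% in untreated KO cells, against 65.1 and 45.0% in treated WT and 38.4 and 39.8% in untreated WT cells. The gap between KO and WT cells was -1.12 ± 0.21 at 12 h (adjusted p = 0.0117) and -0.06 ± 0.21 before treatment (adjusted p = 0.891). The difference was -1.06 ± 0.30 (adjusted p = 0.0443), and -1.41 and -0.70 in the replicates. It stayed below 0 under every alternative tried, and passed in 6 of 24 alternatives besides the omission of single arrays and in 3 of those 12 omissions.

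miR-222 has the seed of miR-221 and is encoded beside it (chrX:19146901-19146923, minus strand), yet fell in WT cells. It had 2.75 and 1.53% in treated KO and 7.08 and 4.96% in untreated KO cells, against 11.3 and 6.76% in treated WT and 30.3 and 24.3% in untreated WT cells. Its difference of 0.75 ± 0.50 did not pass (adjusted p = 0.379), and the gap between the pair was not tested. Both treated KO arrays of miR-222 were raised to the floor, which shortened its KO decrease to -0.88 and so enlarged this difference. miR-455, known from cartilage, had 2.53 and 1.67% in treated KO and 7.76 and 7.37% in untreated KO cells, against -1.58 and -1.46% in treated WT and -0.04 and -0.13% in untreated WT cells. It was at least 2.35-fold higher in untreated KO than in untreated WT cells. Only untreated KO cells exceeded the floor, so the difference of -1.23 ± 0.09 (adjusted p = 0.000407) repeats that genotype gap with its sign turned. The SE leaves out the spread below the floor. This difference was -1.88 with a floor 4 times lower and -0.23 with a floor 2 times higher. miR-24-1*, the passenger strand beside miR-24, differed by -0.56 ± 0.13 (adjusted p = 0.0216) at 2.65 to 4.80% on all 8 arrays, and passed with neither of these floors. In the list of miR-221, miR-222 and the miR-23, miR-24 and miR-27 clusters 2 of 8 were lower and 0 higher (median -0.35), beside 2.07% and 20.7% of all tested, and miR-27a and miR-27b, at -0.64 and -0.69, did not pass.

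Closest to the threshold without passing were miR-342-3p (1.65 ± 0.51, adjusted p = 0.0588), miR-34a, miR-467b (1.31 ± 0.43, adjusted p = 0.0722), miR-33 (-0.58 ± 0.19, adjusted p = 0.0794) and miR-193 (-1.01 ± 0.34, adjusted p = 0.0823). miR-342-3p repeated the form of miR-322, with 12.7 and 14.9% in treated KO and 12.4 and 14.3% in untreated KO cells, against 5.81 and 5.50% in treated WT and 16.2 and 18.4% in untreated WT cells. miR-193 resembled miR-221, with 15.02 and 14.2% in treated KO and 19.1 and 16.7% in untreated KO cells, against 60.5 and 37.5% in treated WT and 30.5 and 27.3% in untreated WT cells. In neither did the groups overlap at 12 h.

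In a list of miRNAs that published studies link to the unfolded protein response, 23 of 41 were tested, and 4 were higher (miR-322, miR-106b, miR-30e and miR-25), 2 lower (miR-221 and miR-455) and 17 did not pass. Its median was 0.37, below that of all tested, and the share called, 6 of 23, is near that over all tested, 33 of 145. The miR-29 members, known to target collagens, were at 0.56 (miR-29a), 0.34 (miR-29b) and 0.43 (miR-29c). miR-214 was high in KO cells at both times, at 127 and 117% in treated KO and 200.4 and 190.2% in untreated KO cells, against 18.2 and 21.6% in treated WT and 58.7 and 53.1% in untreated WT cells. Its responses were -0.68 ± 0.49 in KO and -1.49 ± 0.49 in WT cells, neither past the threshold (adjusted p = 0.561 and 0.0572), and the difference of 0.81 ± 0.69 did not pass (adjusted p = 0.502). miR-125b-5p, at 274 to 583%, had a difference of -0.01 ± 0.28.

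The miRNAs of the Sfmbt2 intron repeat (the miR-466, miR-467, miR-669 and miR-297 names) had 16 tested members, 2 higher (miR-467a and miR-467e), 0 lower and a median of 0.84, beside 20.7% higher, 2.07% lower and 0.49 over all tested. Of the 15 miRNAs that were far higher on replicate 2 of both treated groups, 9 bore these names and 6 did not (miR-1187, miR-1196, miR-207, miR-468, miR-574-3p and miR-877*). miR-669c had 12.6 and 88.3% in treated KO and 5.54 and 5.21% in untreated KO cells, against 4.22 and 110.7% in treated WT and 11.5 and 9.08% in untreated WT cells. Replicate 2 of both treated groups was the high one, and the difference of 1.56 ± 2.12 did not pass (adjusted p = 0.699). miR-466c-5p showed the same arrays high, at 36.4 and 41.5% against 3.53 to 7.55% on the other 6, with 1.22 ± 1.63 (adjusted p = 0.693). Without treated WT replicate 1 the differences of miR-669c and miR-466c-5p became -0.80 and -0.56.

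The star list of passenger strands had 11 tested members, 0 higher and 1 lower, with a median of 0, beside 20.7% and 2.07% of all tested. Of 29 fibroblast names 26 were tested, 4 higher (miR-21, miR-125a-5p, miR-152 and miR-196b) and 2 lower (miR-221 and miR-455), with a median of 0.34. This share called, 6 of 26, is near that over all tested, 33 of 145. Fibroblast miRNAs made up 36.3 to 52.4% of all mouse signal in treated KO and 57.9 to 58.4% in untreated KO cells, against 32.1 to 51.7% in treated WT and 55.0 to 55.4% in untreated WT cells. The epithelial (7 names), muscle (7), neural (7), blood and endothelial (9) and pluripotent (12) lists had 0 tested members, and none exceeded 0.202% of mouse signal on any array. miR-206, miR-126-3p and miR-294 were well above background on 1 of the 8 arrays each. In bulk RNA, fewer cells of a type and less RNA per cell cannot be told apart.

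The 8 arrays fell on 4 scan dates, each with 1 array of both genotypes. With scan date as a block the estimates were the same, and 30 were higher (27 shared with the 30 above) and 2 lower (both shared). miR-146a (adjusted p = 0.0983), miR-196b (adjusted p = 0.0677), miR-500 (adjusted p = 0.071) and miR-221 (adjusted p = 0.0754) no longer passed with this block. Leaving out 1 array at a time, the calls of miR-146b, miR-210, miR-34c, miR-148a, miR-26b, miR-26a, miR-497, miR-195, miR-16 and miR-455 held in all 12 omissions. Of the 12 arrays, 4 were 24 h arrays, which enter only the spread and cannot change the 12 h estimate. Only untreated WT cells (miR-497 and miR-195) or untreated KO cells (miR-455) exceeded the floor, so an omission could hardly change these 3 calls. Those of miR-322, miR-106b and miR-130a were lost without treated KO replicate 2 and without untreated KO replicate 1. let-7i was lost in 10 of the 12, all but the KO 24 h arrays. For the 14 called miRNAs with 2 or more probes well above background on all 8 arrays, each such probe gave the direction of the call. Such probes of 1 miRNA lay within 0.24 of each other. The other calls had at most 1 such probe. Their dimmer probe gave the same direction in some, as in miR-210 (1.74 and 2.31), and little or nothing in others. Examples are miR-34c (0 and 2.30), miR-146b (0 and 3.06) and miR-34b-5p (0.12 and 1.65).

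At 24 h the same difference, which shares the untreated arrays, was 3.01 ± 0.28 for miR-34c and 2.65 ± 0.39 for miR-34b-5p (adjusted p = 0.000586 and 0.00739), 2.20 ± 0.44 for miR-146b (adjusted p = 0.0324), 1.66 ± 0.25 for miR-210 (adjusted p = 0.00776), 1.53 ± 0.34 for miR-148a and 0.97 ± 0.22 for miR-26a (adjusted p = 0.043 each). It did not pass for miR-322 (1.51 ± 0.40, adjusted p = 0.0627), miR-26b (0.80 ± 0.23, adjusted p = 0.0731), miR-106b (0.75 ± 0.22, adjusted p = 0.0772), miR-16 (0.53 ± 0.17, adjusted p = 0.0844) or miR-221 (-0.98 ± 0.30, adjusted p = 0.0805). Whether the 12 h and 24 h values differ was not tested.

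The counts depended on the processing more than the directions did. Correcting the background with normexp, a model of signal and background, left 0 calls either way, with 11 of the 30 above 0. With a floor 4 times lower 20 were higher and 2 lower (19 and 1 shared), and with a floor 2 times higher 23 and 2 (23 and 1 shared), with 27 of the 30 above 0 and 2 of the 3 below. Untreated KO replicate 1 held 6 spots of extreme local background, and with such spots left out of the normexp fit, an alternative chosen after seeing the data, all 30 were above 0 and 0 passed. The scanner software's total gene signal gave 0 higher and 1 lower, with 26 of the 30 above 0.

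**Figure D5:**
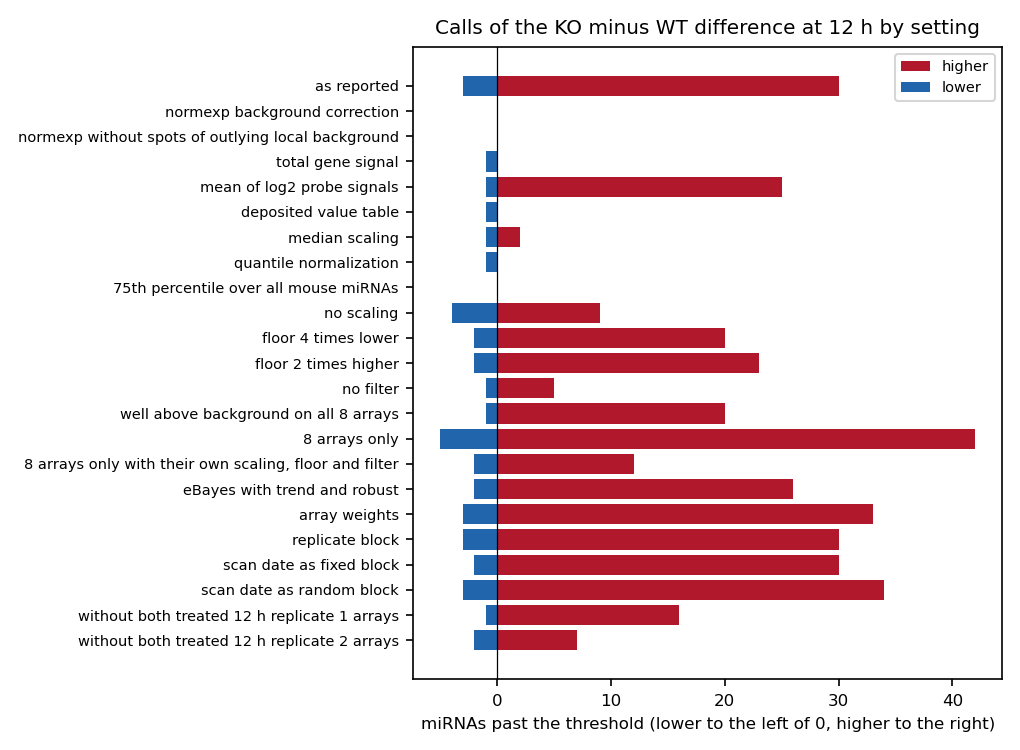
Number of miRNAs past the threshold in the KO minus WT difference at 12 h under each way of processing (rows), with lower calls to the left of 0 and higher calls to the right. The reported setting gives 30 higher and 3 lower. The higher calls run from 0 under normexp, quantile normalization and the total gene signal to 42 with the 8 arrays alone.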

How the data were processed

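Total RNA of mouse embryonic fibroblasts was hybridised to 1-colour Agilent miRNA arrays, per the labels' protocols, and read with Agilent Feature Extraction 10.7.1.1, per the submitters' processing notes. Each array had 13715 spots, 13000 of them not controls, in 1857 probes. Per the file headers, the deposited processed signal of a spot is a background-subtracted intensity, not scaled between arrays. The value table that the authors deposited holds log2 values: it equalled the log2 of the software's total gene signal to within 1.16e-06, and its column medians ran from 5.44 to 6.90. Other columns that the authors deposited hold 0 or 1 flags, and 0 spots were saturated.

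For each miRNA the mean processed signals of its probes were summed, without control or outlier spots. Arrays were scaled to their 75th percentile, taken over 82 miRNAs that all 12 arrays flagged as well above background. Scaled signals under 0.0322 (-4.96 in log2) were set to that floor, and logs to base 2 followed. The flag of a probe was the flag of at least 50% of its spots, and that of a miRNA the flag of any probe. A mouse miRNA was tested if flagged on each array of some group, which held for 3 through a 24 h group alone, and 466 were left out as too dim. The 6 groups of 2 arrays were fitted in R 4.3.3 with limma 3.58.1 (group means, eBayes; 6 residual and 1.03 prior degrees of freedom; Benjamini-Hochberg over 145). Bounds ("at least") set the dim group at the lowest level well above background on each array, and allow for neither SE nor other processing. The fit was tested on simulated data with normal noise, the same spread in all groups for each miRNA, and no floor. That test does not cover the unequal spreads, floored values and shared replicate shifts of these arrays.

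Values are given for the calls with the largest differences that had 1 sign in both replicates (at most 15 in each direction), the 5 nearest the threshold, up to 4 members of each list with the largest differences, the unfolded protein response list, and miRNAs sharing a seed with a call. The members and lists were chosen with earlier results of these data known. The files hold no mean signal per spot, so normexp (offset 50) used the median signal and median local background. Other alternatives were the deposited table, other scalings, floors, filters and spread estimates, the replicate block, the scan date (statmod 1.5.0) and leaving out each array.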

Additional observations from a re-analysis of the deposited data

Results flagged for a closer look

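The KO and WT responses at 12 h differed past the threshold of limma's test of that difference for 33 miRNAs, and each value below is the KO response minus the WT response in log2 units.

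Above 0 by more than 2 were miR-146b (2.90), miR-146a (2.73), miR-210 (2.42), miR-34c (2.31), miR-322 (2.12) and miR-148a (2.04). Between 1 and 2 were let-7i (1.58), miR-129-3p (1.93), miR-34b-5p (1.97), miR-26b (1.36), miR-26a (1.27), miR-423-5p (1.16), miR-106b (1.14), miR-497 (1.07) and let-7g (1.02). Between 0 and 1 were miR-16 (0.99), miR-130a (0.98), miR-30e (0.97), miR-21 (0.97), miR-107 (0.90), miR-195 (0.89), miR-196b (0.89), miR-25 (0.88), miR-152 (0.85), miR-467e (0.83), let-7c (0.70), miR-125a-5p (0.69), miR-467a (0.64), let-7b (0.63) and miR-500 (0.44). Below 0 were miR-455 (-1.23), miR-221 (-1.06) and miR-24-1* (-0.56). With 2 arrays a group, no array could be tested as standing apart from its group.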

How the results depend on the processing

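The reported 30 higher and 3 lower calls are tied to the signal and scaling used, and the cause of each change below was not tested. The counts were 0 and 0 under normexp, with or without the outlying spots, and with the 75th percentile over all mouse miRNAs; 0 and 1 under quantile normalization, the deposited table and the scanner's total gene signal; 2 and 1 under median scaling; and 9 and 4 unscaled. With a floor 4 times lower or 2 times higher they were 20 and 2 or 23 and 2, and the differences of miRNAs at the floor changed in size. They were 5 and 1 of 611 with no filter, 20 and 1 of the 89 on all 8 arrays, 25 and 1 with the mean of log2 probe signals, 12 and 2 with the 8 arrays scaled and filtered alone, 16 and 1 without both treated 12 h replicate 1 arrays and 7 and 2 without both replicate 2 arrays (each added after seeing the data), and 42 and 5 with the 8 arrays alone or without both 24 h arrays of either replicate, added after seeing the data. Leaving out 1 array gave 9 to 43 higher and 1 to 6 lower; the highest counts were without a KO 24 h array and the lowest without untreated KO replicate 1 (9 and 1) or treated KO replicate 2 (10 and 1). Without untreated KO replicate 2 or either untreated WT array 17 were higher, and without treated WT replicate 2 there were 14 and 6. The median difference was 0 with no filter, 0.07 under median scaling, 0.11 unscaled, -0.012 under quantile normalization, -0.25 with the 75th percentile over all mouse miRNAs and -0.73 under normexp. Same-numbered arrays deviated together among the treated groups (correlations of 0.68 to 0.95) and between the untreated groups (0.68), which share scan dates, but in opposite ways between treated and untreated groups (-0.54 to -0.24), so the numbers do not pair all groups; with the replicate block 30 were higher (28 shared) and 3 lower (2 shared). Signal over background limits what can be seen at the floor.

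Some named values changed direction. Under the planned normexp fit, which included the spots of extreme background, these were miR-103 (-0.32), miR-107 (-0.28), miR-125b-5p (0.64), miR-129-3p (-0.55), miR-146a (-0.40), miR-146b (-0.65), miR-148a (-0.65), miR-152 (-0.95), miR-195 (-1.0024), miR-196b (-0.35), miR-210 (-0.15), miR-222 (-0.47), miR-25 (-0.10), miR-26b (-0.10), miR-30d (-0.47), miR-30e (-0.62), miR-342-3p (-0.30), miR-34a (-0.056), miR-34b-5p (-0.78), miR-34c (-0.44), miR-423-5p (-0.96), miR-466c-5p (-1.02), miR-467a (-0.94), miR-467b (-0.51), miR-467e (-0.94), miR-497 (-0.96), miR-500 (-0.93), miR-669c (-0.84), miR-93 (-0.47), miR-98 (-0.80) and miR-99a (-0.79). Without the outlying spots they were miR-18a (0.042), miR-33 (0.0054) and miR-455 (0.072). With the 75th percentile over all mouse miRNAs they were let-7a (-0.0083), let-7b (-0.25), let-7c (-0.18), let-7d (-0.26), let-7e (-0.53), let-7f (-0.13), miR-103 (-0.28), miR-125a-5p (-0.19), miR-15a (-0.13), miR-214 (-0.066), miR-29a (-0.31), miR-30d (-0.10), miR-500 (-0.44), miR-93 (-0.51) and miR-98 (-0.54). Under median scaling and unscaled they were let-7e (-0.15 in each), miR-500 (-0.053 and -0.057), miR-93 (-0.13 in each) and miR-98 (-0.16 in each), and after quantile normalization let-7b (-0.0011), miR-125b-5p (0.14), miR-29a (-0.087), miR-500 (-0.50) and miR-98 (-0.31). With the deposited table, and likewise with the total gene signal, they were miR-129-3p (-2.46), miR-152 (-0.82), miR-423-5p (-2.27) and miR-467e (-1.05). Leaving out 1 array turned miR-125b-5p (0.01 to 0.16, and 0.047 without both treated 12 h replicate 1 arrays), miR-466c-5p (-0.56, with 2.9988 at the other extreme) and miR-669c (-0.80, with 3.91).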
